A study of Mus musculus with 18 samples.

Results

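The p53 family and its cofactors were followed through differentiation and irradiation of mouse embryonic stem cells. They comprised the transcription factor genes Trp53, Trp63 and Trp73, the p53 inhibitor gene Mdm4, the ASPP family genes Ppp1r13b, Ppp1r13l and Trp53bp2, and the kinase gene Hipk2. These 8 genes were taken by name and not by their values, and a probe counted as a member where its transcript identifier belongs to 1 of these genes in RefSeq. All 8 of the 8 genes were on the array, among 34289 gene names, and they were read by 19 of the 37246 probes. Trp63 had 8 probes, Trp73 had 3, Trp53 and Hipk2 had 2 each, and each of the other genes had 1. Each probe is called here by the RefSeq transcript it was assigned to, and the probe of a gene with the highest mean level over all arrays is called its main probe. The probe sequences were not used here, so the exon that a probe reads is not known.

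ES cells were early passage, wild-type, primary embryonic stem cells of the mouse, kept without feeder cells in medium with LIF, the cytokine that holds them undifferentiated. ED cells were isogenic non-stem cells, obtained by withdrawing LIF, and per the study's methods beta-mercaptoethanol, with no lineage imposed. The labels give the loss of stem cell markers as the end point, and 8 of 9 pluripotency markers tested were lower in ED. On all ED arrays 8 of 10 were well above background, near the share of all probes, 72.1% to 77.9% per array. ES and ED were unirradiated. ESRE and EDRE were the same cells collected 15 min after 10 Gy of ionizing radiation (IR), and ESRL and EDRL were collected 4 h after it. Each of the 6 groups had 3 samples, and each of the 18 samples was hybridized to 1 array. Nothing states that the replicates came from separate cultures, so the p-values measure the spread between these samples, which may be technical.

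p53, p63 and p73 bind similar DNA elements and share a large set of target genes. p53 is held low in unstressed cells by MDM2 and its relative MDM4, and is stabilized after DNA double-strand breaks, mainly at the protein level. p63 is known for epithelial stem cells and germ cells, and p73 for neural development and multiciliated cells. Trp63 and Trp73 are each transcribed from an upstream promoter, which gives forms with the transactivation domain, and from a promoter inside the gene, which gives shorter forms without it. ASPP1 and ASPP2, encoded by Ppp1r13b and Trp53bp2, direct p53 family proteins to apoptosis genes, whereas iASPP, encoded by Ppp1r13l, inhibits p53. HIPK2 phosphorylates p53 after DNA damage.

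Trp73 was the member that changed both with differentiation and after IR, and its promoter windows are therefore shown. RefSeq gives Trp73 at chr4:154056249-154139875 of GRCm38.p6, and the tables used here hold promoters for 7 of the 8 genes, 10 windows in all. Each window was taken as the 250 bases before a start of transcription. The first line is the upstream promoter at chr4:154139876-154140125, minus strand, and the second is the promoter inside the gene at chr4:154097174-154097423, minus strand, 42702 bases further along the gene. Both are written 5′ to 3′, and capitals mark the match to the p53 consensus, 2 decamers without a spacer, with at most 2 mismatches in 20 bases.
Trp73, upstream promoter: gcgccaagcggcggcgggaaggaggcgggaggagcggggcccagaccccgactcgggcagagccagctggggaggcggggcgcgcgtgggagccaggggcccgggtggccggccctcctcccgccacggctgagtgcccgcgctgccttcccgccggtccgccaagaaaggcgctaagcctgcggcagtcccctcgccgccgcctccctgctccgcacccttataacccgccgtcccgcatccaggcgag
Trp73, promoter inside the gene: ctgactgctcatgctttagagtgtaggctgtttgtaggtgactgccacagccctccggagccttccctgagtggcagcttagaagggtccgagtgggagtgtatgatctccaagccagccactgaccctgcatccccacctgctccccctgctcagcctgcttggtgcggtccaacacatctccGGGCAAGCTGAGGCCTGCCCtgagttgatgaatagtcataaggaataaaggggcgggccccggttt
The promoter inside Trp73 was the only 1 of the 10 member windows with a match to the p53 consensus, which had 2 mismatches and lay from 66 to 47 bases before the start. Of 32851 RefSeq promoter windows of this length, 217 (0.661%) held such a match. The GC box GGGCGG, searched on both strands, was in 4 of the 10 windows and in 32.7% of all windows. The promoter inside Trp73 held it and the upstream promoter did not, although its GC content was 77.2% against 58.4%. These matches describe the letters of the windows, and the arrays do not show which promoter was used.

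A level is given here as the log2 of the signal over its array's 75th percentile, so that 75% of the spots lie below 0, and levels are compared for 1 probe between groups and not between probes. The 75th percentile of the signals was 2806 to 4268 on 15 arrays, 1952 on ESRL replicate 1, and 875 and 1155 on EDRE replicates 2 and 3. Outliers made up 23.8% to 24.4% of all spots on these EDRE arrays, while the 15 arrays had 3.33% to 11.1% and ESRL replicate 1 had 4.43%. Of the 342 spots of members, 23 were outliers, 9 each in ES and EDRE, and were left out of the fits, 315 were well above background and 0 were saturated. The arrays were scanned at 6 times, and no scan time held an irradiated group together with its own unirradiated control, so scan time and IR cannot be told apart in those comparisons. All ED arrays were scanned at 1 time and all ES arrays at another, so scan time and differentiation cannot be told apart in ED against ES either. Of 9 pluripotency markers tested, 8 were lower in ED, and the summed log2 level of the 10 listed was 9.19 to 9.21 in ES against 4.13 to 4.53 in ED, where Zfp42 was not well above background on any array. Of 8 mesenchyme markers, 7 were higher in ED and 1, Thy1, was lower, and their summed log2 level rose from 5.09 to 5.19 in ES to 8.37 to 8.73 in ED. ED cells are a mixed product, and fewer cells of a type and less RNA per cell cannot be told apart in bulk RNA.

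A gene was called changed where a probe had an adjusted p under 0.05 (limma with Benjamini-Hochberg adjustment over all probes tested) and a log2 change over 1 in size. In ED against ES, 4 of 7 members tested changed, against 41.5% of all genes tested (14.9% higher, 26.7% lower). Trp63 was higher, and Trp73, Ppp1r13b and Trp53 were lower. At 15 min after IR, 0 of 7 members tested were called in ESRE against ES (0.463% of all genes, 0.29% higher and 0.173% lower) and 0 of 7 in EDRE against ED (5.2%, 2.23% higher and 2.97% lower). At an unadjusted p under 0.05, 1 of 18 member probes stood in the first of these and 3 of 16 in the second. Of all probes tested, 2633 of 27875 and 6376 of 24490 did. The member counts do not exceed these shares over all genes and probes and are not a result about the members. Trp73 was not tested in ED cells at 15 min. The larger differences of Trp63, Mdm4 and Hipk2 are given below with each gene. At 4 h, Trp73 was higher and Mdm4 was lower in ESRL against ES, 2 of 7 members against 7.59% of all genes (0.691% higher, 6.9% lower). Trp73 alone was called in EDRL against ED, 1 of 8 members, where 1.66% of all genes were called (1.4% higher, 0.254% lower). The difference between the IR changes of ES and ED was called for 0 of 7 members at 15 min (2.09% of all genes, 0.85% higher and 1.24% lower) and 0 of 7 at 4 h (1.16%, 0.246% higher and 0.911% lower). At an unadjusted p under 0.05, 2 of 18 member probes, both of Trp63, stood at 15 min and 0 of 18 at 4 h. Of all probes tested, 5252 of 28098 and 4305 of 28375 did.

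**Figure D1:**
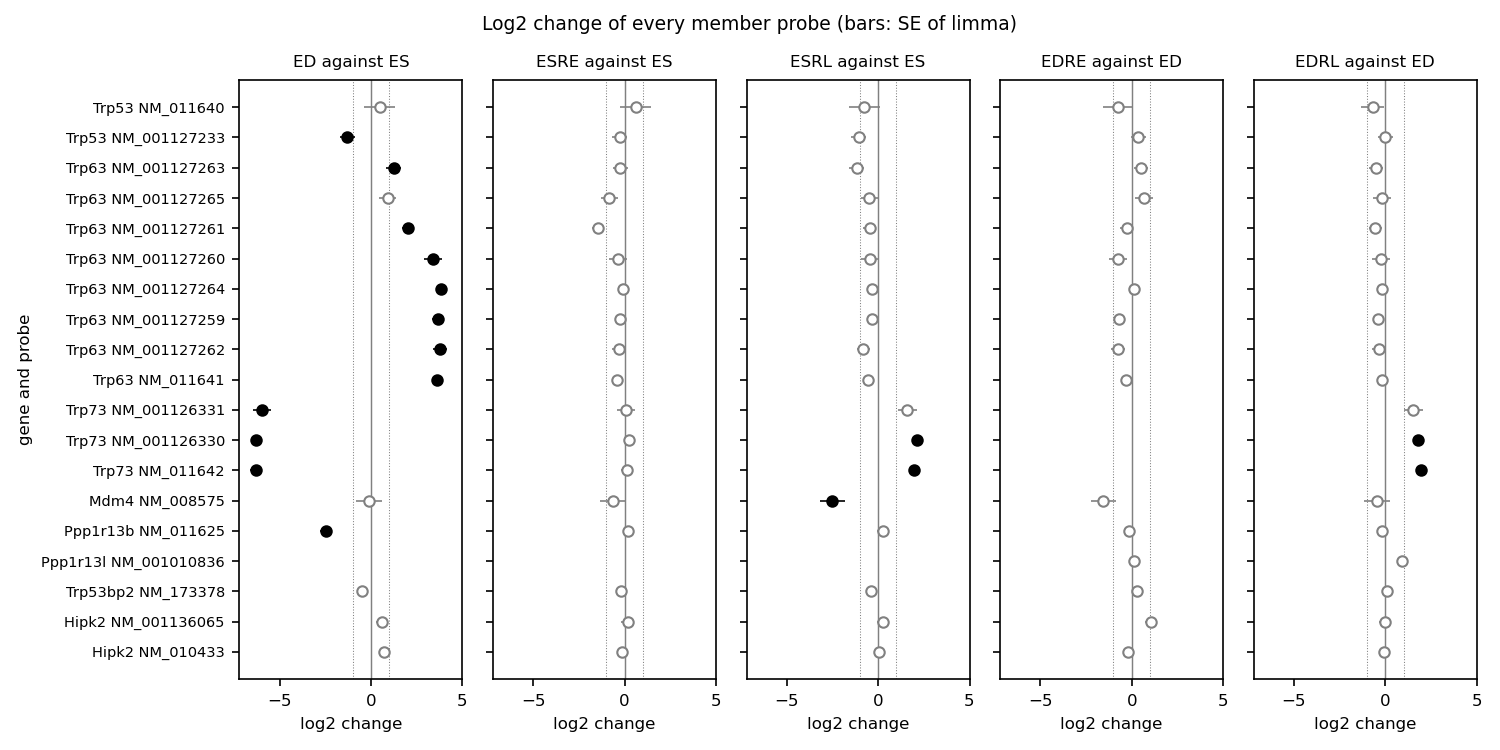
Log2 change (x axis) of each of the 19 member probes (y axis) in 5 comparisons, with the SE of limma as bars. Filled points were called changed, open points were not, dotted lines mark a log2 change of 1 in size, and a missing point was not tested. The Trp73 probes lie far below 0 in ED against ES, where the point of NM_011642 is the measured difference from ED signals that were not well above background.

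Trp73, encoding p73, was well above background on all arrays of the stem cell groups and close to background in ED. Probe NM_011642 had log2 levels of -1.48, -1.51 and -1.56 in ES, and of -7.96, -7.98 and -7.56 in ED. None of the 3 ED values was well above background, and the groups were far apart. Where a probe is not well above background on any array of a group, its difference is given as a bound, which takes for each dim array the higher of the probe's signal and the lowest signal that was well above background. Against this bound, NM_011642 was at least 62.8-fold higher in ES than in ED. The adjusted p of 1.2e-10 is that of the measured difference of -6.32, and the bound itself was not tested. The log2 change was -6.30 (SE 0.27, adjusted p = 6.57e-11) for NM_001126330, with 1 of 3 ED arrays well above background, and -5.96 (SE 0.50, adjusted p = 1.06e-07) for NM_001126331, with 2 of 3.

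At 15 min after IR the Trp73 levels in stem cells were those of the unirradiated cells within the spread: NM_011642 read -1.52, -1.36 and -1.35 in ESRE, a difference of 0.11 (SE 0.29, adjusted p = 0.993) on the log2 scale. At 4 h it read 0.26, 0.37 and 0.72 in ESRL, and all 3 values lay above all 6 of ES and ESRE. The rise over ES was 1.96 on the log2 scale (SE 0.29, adjusted p = 0.00135) for NM_011642. It was 2.12 (SE 0.27, adjusted p = 4.95e-04) for NM_001126330. It was 1.60 (SE 0.50, adjusted p = 0.0629) for NM_001126331, the main probe, whose groups did not overlap but which did not pass the threshold.

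In ED cells Trp73 came up from background at 4 h. NM_011642 read -5.88, -5.96 and -5.76 in EDRL, well above background on 3 of 3 arrays, and exceeded its ED level at least 3.08-fold. The measured difference was 1.97 (SE 0.29, adjusted p = 0.00131), from ED signals that were not well above background, and the bound was not tested. NM_001126330 read -6.01, -6.28 and -5.73 in EDRL against -7.56, -7.98 and -7.87 in ED, a rise of 1.80 (SE 0.27, adjusted p = 0.00171). NM_001126331 rose by 1.54 without passing the threshold (SE 0.50, adjusted p = 0.148), its ED values being -7.64, -5.97 and -7.80. No probe had EDRL levels that overlapped those of ED, although for NM_001126331 the nearest pair was -5.95 in EDRL and -5.97 in ED. The level in EDRL stayed far below that of unirradiated ES cells, by all 3 probes. Trp73 was not tested in EDRE against ED, since neither group had a probe well above background on all arrays. On EDRE replicate 2, 1 of the dim arrays, all 3 probes read the same value, -6.59.

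Trp73 did not pass the test of a difference between its IR changes in the stem and the non-stem cells, which does not show that they were equal. The change in ES minus the change in ED at 4 h was 0.32 (SE 0.39, adjusted p = 0.737) for NM_001126330 and 0.07 (SE 0.71, adjusted p = 0.978) for NM_001126331. With ED near background, the change in ED is the less certain of the pair.

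Against the cells collected at 15 min, Trp73 was higher at 4 h in ESRL against ESRE, the only 1 of 8 members called there (5.22% of all genes, 0.693% higher and 4.53% lower), by 1.88 for NM_001126330 (adjusted p = 0.00107) and 1.86 for NM_011642 (adjusted p = 0.00189). It was higher in EDRL against EDRE too, where 2 of 8 members were called (7.78% of all genes, 3.96% higher and 3.82% lower), by 1.28 for NM_001126330 (adjusted p = 0.011). The other probes are bounds there, at least 1.27-fold for NM_011642 and at least 1.61-fold for NM_001126331, and the bounds were not tested. Their measured log2 differences were 1.61 (adjusted p = 0.00464) and 2.05 (adjusted p = 0.0218), from EDRE signals that were not well above background. The comparisons of 4 h with 15 min can be made within 1 scan time. Within it, NM_001126330 rose by 2.11 in ESRL against ESRE (2 arrays each, adjusted p = 0.0078). In EDRL against EDRE the difference was 1.75 between 3 arrays and 1 (adjusted p = 0.00533), where the spread comes from the EDRL arrays alone and the lone EDRE array is assumed to vary like them. Without the 3 dim arrays, NM_001126330 rose by 2.30 in ESRL against ES (adjusted p = 4.7e-05) and by 1.80 in EDRL against ED (adjusted p = 7.7e-05). With scan time as a random block, the comparisons with unirradiated cells lost their calls, at 2.15 in ESRL against ES (adjusted p = 1) and 2.29 in EDRL against ED (adjusted p = 0.387) for this probe. The random block takes a correlation of 0.81 within a scan time. Where no scan time holds both groups compared, it has little power, and a lost call there decides nothing. With normexp background correction, NM_001126330 was called neither in ESRL against ES (2.01, adjusted p = 0.0932) nor in EDRL against ED (0.69, adjusted p = 0.875).

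**Figure D2:**
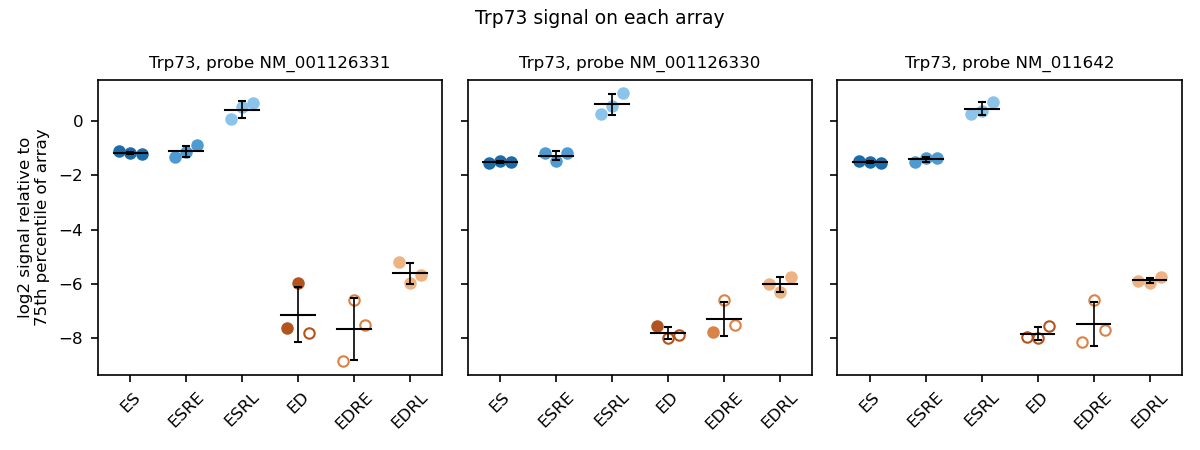
Log2 signal over the array's 75th percentile (y axis) for the 3 Trp73 probes in the 6 groups (x axis). Each point is 1 array, open where the signal was not well above background, and lines and bars are the mean and SD of 3 arrays. The ESRL points lie between 0.08 and 1.02, above all ES and ESRE points, and the EDRL points between -6.28 and -5.19.

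Trp63, encoding p63, moved opposite to Trp73 with differentiation. Of its 8 probes, 7 were called higher in ED than in ES. NM_001127264 had log2 levels of -6.45, -5.84 and -5.38 in ES and of -2.37, -1.98 and -1.79 in ED, a rise of 3.84 (SE 0.25, adjusted p = 1.48e-08). NM_011641 read -5.88, -5.86 and -5.83 in ES and -2.20, -2.25 and -2.36 in ED, a rise of 3.59 (SE 0.23, adjusted p = 4.7e-09). No ED value of any of the 8 probes overlapped its ES values.

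The size of the rise differed between the probes. It was 3.40 to 3.84 on the log2 scale for NM_001127259, NM_001127260, NM_001127262, NM_001127264 and NM_011641. It was 2.02 (SE 0.35) for NM_001127261, 1.24 (SE 0.40, adjusted p = 0.0164) for NM_001127263, the main probe, and 0.91 (SE 0.47, adjusted p = 0.124) for NM_001127265. The last was called with arrays set to their median (1.56, adjusted p = 0.0073), in the value table (1.56), with quantile normalization (1.52) and with array weights (1.20). NM_001127263 read -3.82, -3.67 and -3.88 in ES and -2.47, -2.55 and -2.63 in ED. Its call was lost with scan time as a random block (0.96, adjusted p = 0.368) and with the 75th percentile taken without outlier spots (0.93, adjusted p = 0.424).

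After IR no Trp63 probe was called at either time in either cell type. The largest difference at 15 min in stem cells was that of NM_001127261, with -6.06, -6.19 and -5.35 in ESRE against -4.81, -3.66 and -4.75 in ES, without overlap (-1.46, SE 0.35, adjusted p = 0.0924). It passed the threshold without ESRL replicate 2 (adjusted p = 0.0498), with array weights (adjusted p = 0.00219) and with outlier spots kept but the 3 dim arrays left out (adjusted p = 0.0448), and not with scan time as a random block (adjusted p = 1). At 4 h in stem cells NM_001127263 read -6.10, -4.27 and -4.52 in ESRL against -3.82, -3.67 and -3.88 in ES (-1.18, SE 0.40, adjusted p = 0.0805), and the value of -6.10 came from the dim ESRL replicate 1, where it was not well above background. In ED cells the Trp63 differences at 4 h were -0.18 to -0.55 for the 8 probes, with adjusted p of 0.547 to 0.918.

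**Figure D3:**
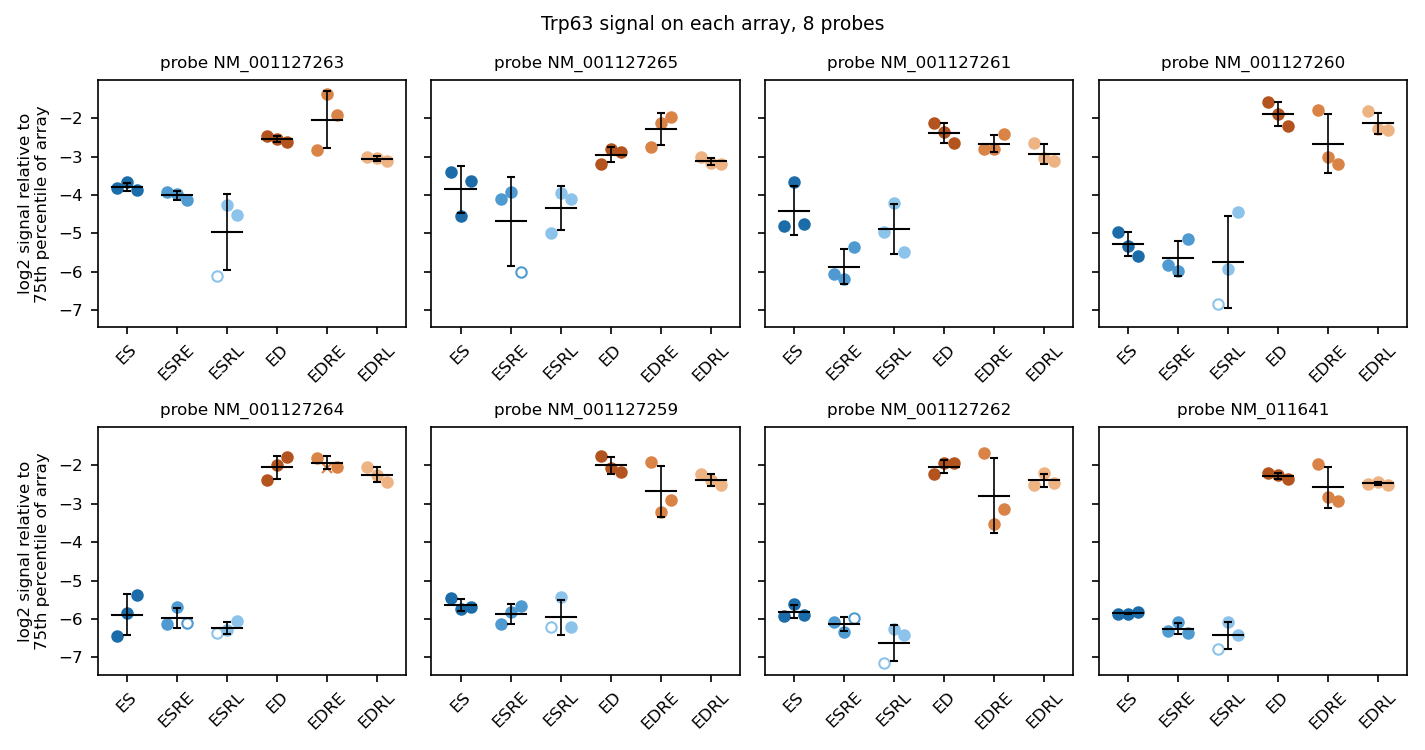
Log2 signal over the array's 75th percentile (y axis) for the 8 Trp63 probes in the 6 groups (x axis). Each point is 1 array, open where not well above background and a cross where the spot was an outlier, and lines and bars are the mean and SD. In every panel the 3 ED points lie above the 3 ES points, by a mean of 0.91 to 3.84.

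p63 is known for its role in stratified epithelium, and markers of that tissue were read on the same arrays. Of 7 tested, 0 were higher in ED and 4 were lower (Col17a1, Krt14, Krt15 and Krt5), the summed log2 level of the 8 listed being 5.86 to 6.50 in ES and 3.68 to 5.57 in ED, with Dsg3 not well above background on any array of either group. Of the simple epithelium markers, 5 of 5 tested were lower in ED. Of the other marker lists, 1 primitive endoderm gene was higher and 3 were lower of 4 tested, 2 neural genes were higher and 1 was lower of 6, and 1 gene of blood and endothelium was higher and 4 were lower of 5. The part of these markers in the Trp63 difference was not tested.

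Trp53, encoding p53, gave different results by its 2 probes. Of the main probe, NM_011640, 7 of 18 spots were outliers. Its log2 levels, outlier spots included, were 2.06, 1.58 and 1.23 in ES and 2.24, 1.18 and 1.16 in ED, and the groups overlapped. Without the outlier spots, which leave 1 ES and 2 ED arrays, the difference was 0.48 (SE 0.84, adjusted p = 0.694). The other probe, NM_001127233, read -2.38, -2.25 and -2.63 in ES and -3.71, -3.71 and -3.70 in ED, without overlap, a fall of 1.29 on the log2 scale (SE 0.41, adjusted p = 0.0164). Its call rested on the scaling: with arrays set to their median the difference was -0.64 (adjusted p = 0.122), and with quantile normalization -0.81 (adjusted p = 0.0532). It was also lost without ES replicate 2 (-1.20, adjusted p = 0.0529).

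No IR comparison of Trp53 was called. At 15 min the differences of NM_011640 and NM_001127233 were 0.61 and -0.27 in stem cells and -0.73 and 0.37 in ED cells, with opposite signs between the probes and adjusted p of 0.638 to 0.971. At 4 h NM_011640 read 1.05, 1.01 and 1.01 in EDRL, the narrowest group of this probe (-0.69 against ED, SE 0.62, adjusted p = 0.713). In ESRL the dim replicate 1 read -0.66 by NM_011640 and -4.77 by NM_001127233, below the other replicates by both probes. Against ES the differences were -0.75 (SE 0.84, adjusted p = 0.654) and -1.05 (SE 0.41, adjusted p = 0.129). For NM_011640 this rests on 1 usable ES array and 2 ESRL arrays. Each ESRL array alone differed from that ES array by -1.89 (the dim replicate 1) and 0.40 (replicate 2), so its direction depends on 1 array.

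Mdm4, encoding the p53 inhibitor MDM4, was dim on these arrays. Its log2 levels were -4.40, -5.60 and -5.32 in ES and -4.69, -5.25 and -5.75 in ED, overlapping groups (-0.12, SE 0.70, adjusted p = 0.913). In ESRL it read -8.41, -5.40 and -9.02, and only the value of -5.40 was well above background, so that 2 arrays were far below ES and 1 lay within its range. The difference from ES was -2.51 (SE 0.70, adjusted p = 0.0389), past the threshold with overlapping groups. Leaving out 1 array at a time, it ranged from -1.80 to -3.61, and the call was lost without any 1 of the ES arrays, without ESRL replicate 1 (-2.11, adjusted p = 0.15) or without ESRL replicate 3 (-1.80, adjusted p = 0.144). It was also lost without EDRL replicates 1, 2 or 3, ED replicate 2, or ESRE replicates 2 or 3, which enter only the variance, with an adjusted p of at most 0.0545. In EDRE it read -6.29, -6.59 and -7.48, below all 3 ED values, with 1 array well above background (-1.56, SE 0.69, adjusted p = 0.171). The values of -6.59 and -7.48 came from the dim EDRE replicates 2 and 3. On replicate 2 all 3 Trp73 probes also read -6.59. The other Mdm4 differences were not called.

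Among the ASPP genes, Ppp1r13b, which encodes ASPP1, fell with differentiation. Its log2 levels, outlier spots included, were 0.19, 0.06 and 0.15 in ES and -2.39, -2.43 and -2.19 in ED, well above background on every array and without overlap. The spots of ES replicates 1 and 2 were outliers, so the fit used 1 ES array, and the fall was 2.49 on the log2 scale (SE 0.31, adjusted p = 1.84e-05). With the outlier spots kept, the difference was -2.47 (adjusted p = 1.1e-07). After IR its differences were between -0.16 and 0.27 in the 4 comparisons with unirradiated cells, with adjusted p of 0.659 to 0.972, so the ESRE and ESRL levels of 0.11 to 0.60 stayed far above those of all ED groups.

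Ppp1r13l, encoding iASPP, was not tested against ES, since all 3 of its ES spots were outliers. With outlier spots kept its ES levels were 2.35, 2.06 and 2.14 and its ED levels 1.36, 1.38 and 1.60, without overlap, a difference of -0.74 (adjusted p = 0.00228). In the value table of the series, which is centred on the median, that difference was -0.09 (adjusted p = 0.732). In ED cells at 4 h it read 2.50, 2.26 and 2.24, above all ED values, a difference of 0.89 (SE 0.15, adjusted p = 0.0106) that stayed under the log2 limit of 1. With arrays set to their median it was 1.03 and was called (adjusted p = 0.0241). It was higher at 4 h than at 15 min in ED cells by 0.77 (SE 0.21, adjusted p = 0.0435, 1 EDRE array), again under the limit. In stem cells the levels were 1.84, 2.03 and 1.95 at 15 min and 2.48, 2.22 and 2.46 at 4 h, without overlap (0.45, SE 0.15, adjusted p = 0.114).

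Trp53bp2, encoding ASPP2, was not called in any comparison. Its log2 levels, outlier spots included, were 0.87 to 1.26 in ES, 0.60 to 0.84 in ESRL, 0.43 to 1.01 in ED and 0.73 to 1.05 in EDRL. The difference was -0.47 (SE 0.22, adjusted p = 0.11) in ED against ES and -0.41 (SE 0.22, adjusted p = 0.3) in ESRL against ES, where the groups did not overlap. On the dim EDRE replicates 2 and 3 it read 1.98 and 2.21, both outlier spots, against 0.92 on EDRE replicate 1.

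Hipk2, encoding the p53 kinase HIPK2, was somewhat higher in ED than in ES by both probes, under the limit on the change. NM_010433 read -0.68, -0.75 and -0.44 in ES and 0.21, -0.08 and 0.23 in ED, without overlap (0.72, SE 0.21, adjusted p = 0.0117, 2 ES arrays). NM_001136065 read -0.54, -0.72 and -0.45 in ES and 0.16, 0.10 and -0.18 in ED (0.60, SE 0.34, adjusted p = 0.159). With arrays set to their median both were called, at 1.38 (adjusted p = 2.21e-04) and 1.25 (adjusted p = 0.00427).

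Hipk2 was the other member called in EDRL against EDRE, lower by NM_001136065 (-1.09, SE 0.33, adjusted p = 0.0488). The EDRE values of this probe were -0.02, 1.72 and 1.63, the high pair on the dim replicates 2 and 3, and EDRL read -0.01, 0.02 and 0.05, so the groups overlapped. Within 1 scan time, without these dim arrays, the 3 EDRL arrays differed by 0.04 from the 1 EDRE array left, a value with no replicate on the EDRE side. Against ED the same EDRE values gave 1.08 (SE 0.33, adjusted p = 0.0599), and NM_010433, whose spots on those arrays were outliers, gave -0.21 (SE 0.25, adjusted p = 0.668). In stem cells no Hipk2 difference after IR exceeded 0.27.

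**Figure D4:**
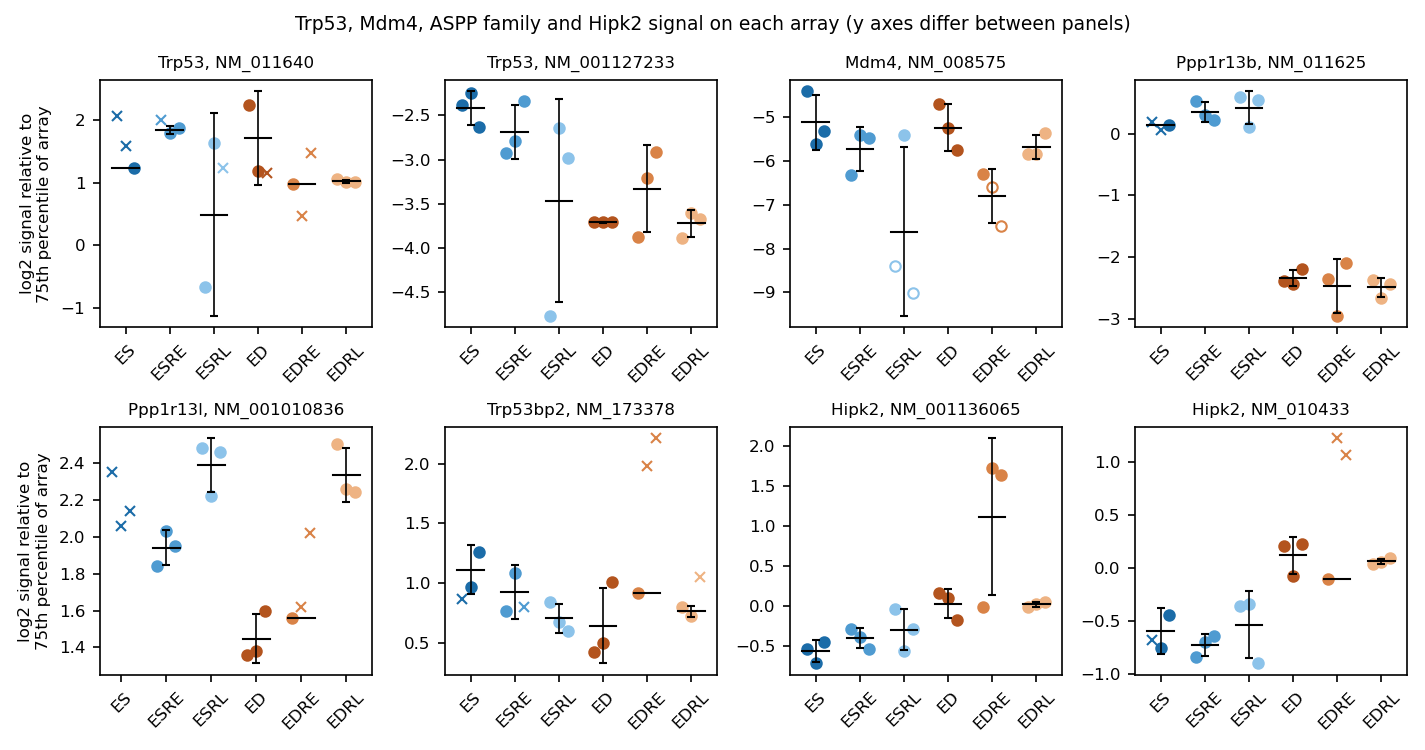
Log2 signal over the array's 75th percentile (y axis, its range differing between panels) for Trp53, Mdm4, the ASPP family genes and Hipk2 in the 6 groups (x axis). Each point is 1 array, open where not well above background and a cross where the spot was an outlier, and lines and bars are the mean and SD without outlier spots. Ppp1r13b lies at 0.06 to 0.60 in the stem cell groups and at -2.96 to -2.10 in the ED groups.

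The genes that p53 family proteins act on were read from a list of 30 p53 targets, all on the array. In ED against ES, 1 of 28 tested was higher and 9 were lower, 10 in all, against 41.5% of all genes (14.9% higher, 26.7% lower), which is no more than the background, with a median log2 change of -0.63 against -0.19 over all genes. Perp, a membrane protein gene that p53 and p63 induce, had levels of 3.94 to 4.22 in ES and -0.62 to -0.47 in ED (-4.66, SE 0.16, adjusted p = 1.56e-11). Pmaip1, encoding the proapoptotic NOXA, was not well above background on any ED array and was at least 1033-fold higher in ES. This comparison could be tested in only 5 of the leave-outs of its own arrays, so 1 of its groups had 1 usable array. Btg2, an antiproliferative gene, and Trp53inp1, which promotes p53-dependent apoptosis, fell by 1.84 (SE 0.44, adjusted p = 0.00263) and 1.80 (SE 0.25, adjusted p = 3.49e-05) on the log2 scale. The gene that was higher was Dram1, an autophagy regulator, at 1.13 (SE 0.28, adjusted p = 0.0033).

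At 4 h after IR more of these targets were called in ED cells than in stem cells, 10 of 26 (1.4% of all genes were higher) against 2 of 27 (0.691%), all higher, and the counts themselves were not compared by a test. Both directions counted, leaving out 1 array gave 9 to 11 in ED cells and 1 to 5 in stem cells. Other settings gave 2 to 12 and 0 to 7, and the stem cell count moved in 14 of 36 alternatives, the ED count in 1. The median log2 change of the list was 0.81 in EDRL against ED (-0.10 over all genes) and 0.28 in ESRL against ES (-0.18). In ED cells Fas, the death receptor, by probe NM_007987 had levels of -0.68 to 0.10 before IR and 2.21 to 2.40 at 4 h (2.68, SE 0.21, adjusted p = 1.16e-05). Trp53inp1 rose by 2.22 (SE 0.25, adjusted p = 1.6e-04), Btg2 by 2.18 (SE 0.44, adjusted p = 0.0144) and Perp by 2.12 (SE 0.15, adjusted p = 3.13e-06). With scan time as a random block, which has little power in these comparisons, 2 targets were called in EDRL against ED and 0 in ESRL against ES.

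In stem cells the 2 called targets were Trp53inp1 (1.15, SE 0.23, adjusted p = 0.00802) and Fas by probe NM_001146708 (1.08, SE 0.21, adjusted p = 0.00726). The call of Trp53inp1 was lost in 6 of 34 alternatives and that of Fas in 10 of 34. With 1 of its own arrays left out, this Fas probe kept its call in 3 of 6 cases. By NM_007987 the Fas difference was 0.71 (SE 0.21, adjusted p = 0.0552). Mdm2, the p53 target that feeds back on p53, was at 4.32 to 4.56 in ES and 5.15 to 5.49 in ESRL, a difference of 0.87 (SE 0.14, adjusted p = 0.00387) under the limit. It was at 3.24 to 3.39 in ED and 4.61 to 4.79 in EDRL, where it rose by 1.39 (SE 0.14, adjusted p = 1.09e-04). Without ESRL replicate 2, 1 target, Fas, was higher and 4 were lower in ESRL against ES.

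At 15 min 0 of 26 targets were called in ESRE against ES (0.463% of all genes). In EDRE against ED 3 of 26 were called, all higher (5.2% of all genes, 2.23% higher). These were Btg2 (1.87, SE 0.44, adjusted p = 0.0267), Trp53inp1 (1.17, SE 0.25, adjusted p = 0.0196) and Bax (1.14, SE 0.32, adjusted p = 0.0479), the last encoding a proapoptotic BCL2 family member. Leaving out 1 array, the count ranged from 0 to 6. It was 0 without ED replicate 1 or 2 or without EDRE replicate 2 or 3, the last 2 being the dim arrays, 1 without ED replicate 3, 6 without EDRE replicate 1, 4 without ESRL replicate 1 or 2, and 2 without any other array. Cdkn1a, the cell cycle inhibitor p21 and a classical p53 target, is named here after its values were seen: its main probe differed by -0.73 (SE 0.30, adjusted p = 0.15) in ESRL against ES and by 0.57 (SE 0.29, adjusted p = 0.428) in EDRL against ED.

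**Figure D5:**
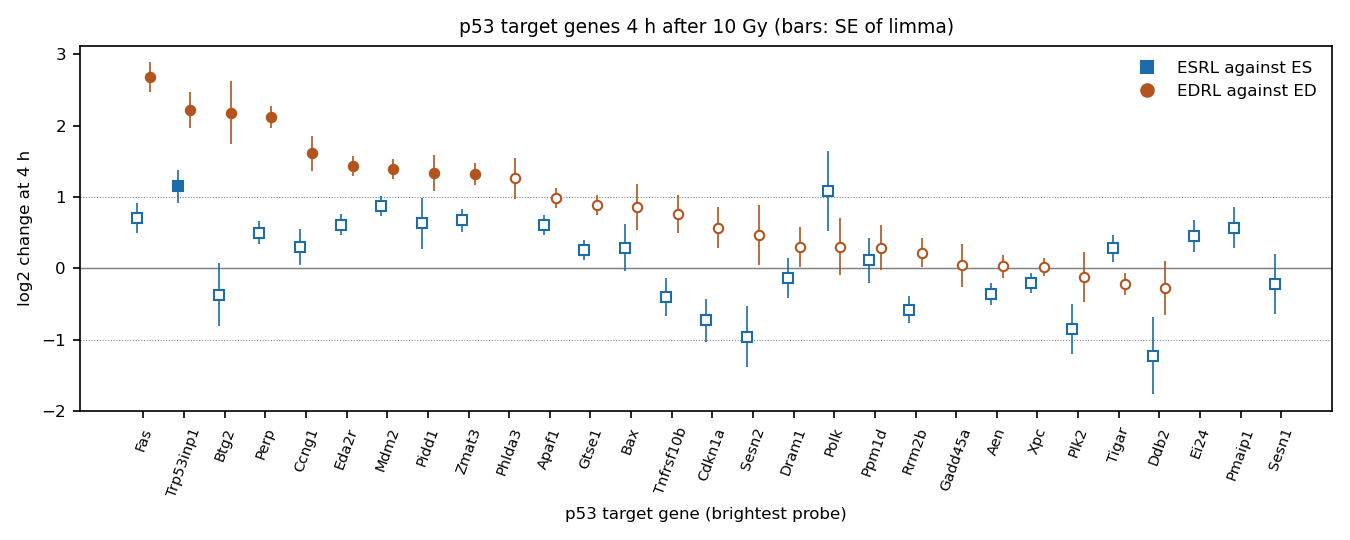
Log2 change at 4 h after 10 Gy (y axis) of each p53 target gene by its main probe (x axis, ordered by the change in ED cells), with the SE of limma as bars. Filled points were called changed, squares are ESRL against ES and circles are EDRL against ED. The highest circle is Fas at 2.68. Fas in stem cells and Apaf1 in ED cells were called by another probe and are open here.

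The other regulators of p53, such as kinases, ubiquitin ligases and deubiquitinases, were read from a list of 30 genes, which shares Mdm2 and Ppm1d with the targets. In ED against ES, 3 of 28 tested were higher and 6 were lower, 9 in all and under the background, with a median log2 change of -0.27 against -0.19. The genes below are a description of the list. Setd7, a lysine methyltransferase of p53, rose by 3.16 (SE 0.39, adjusted p = 1.03e-05), Hipk3 by 1.54 (SE 0.15, adjusted p = 1.24e-06) and Hipk1 by 1.37 (SE 0.18, adjusted p = 2.86e-05), the last 2 being kinases related to HIPK2. Cdkn2a, whose locus encodes ARF, an inhibitor of MDM2, had 1 usable ES array, at -3.56, and ED arrays at -9.39, -9.25 and -6.67, of which 1 was well above background. Its fitted call (adjusted p = 5.94e-04) assumes that the lone ES array varies like the other groups. The checkpoint kinase gene Chek2 fell by 1.72 (SE 0.33, adjusted p = 0.00117), the deubiquitinase gene Usp7 by 1.39 (SE 0.26, adjusted p = 3.5e-04) and Daxx by 1.38 (SE 0.14, adjusted p = 4.26e-06). With scan time as a random block the calls of Chek2 (adjusted p = 0.0841), Cdkn2a (0.0703) and Hipk1 (0.0896) were lost, with the methods' t-test those of Chek2 and Cdkn2a, and with arrays set to their median those of Usp7 (-0.74) and Daxx (-0.73), which fell under the limit. In the value table those of Chek2 (-0.97), Usp7 and Daxx fell under it, and the 75th percentile without outlier spots ended those of Chek2 and Usp7. After IR 0 of 29 regulators were called in ESRE against ES (0.463% of all genes). The counts were 0 of 29 in ESRL against ES (7.59%) and 0 of 27 in EDRE against ED (5.2%). In EDRL against ED 1 of 26 was called (1.66%), which was Mdm2.

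The probes whose centred levels over the arrays were most like those of Trp63 NM_001127263 read Cachd1, with a root mean square difference of 0.16 over 18 arrays, Magea1, at 0.22 over 18, and Zfp608, at 0.26 over 17. The levels of that Trp63 probe spanned 4.74 log2 units. Its ends, -6.10 on ESRL replicate 1 and -1.36 on EDRE replicate 2, both came from dim arrays. The value of -6.10 was not well above background, and the measure was not repeated without the dim arrays. For Trp73 NM_001126331 the nearest were Kbtbd11, at 0.68 over 18 arrays, Vwa2, at 0.70 over 18, and Adrb3, at 0.70 over 17. That probe spanned 9.52, down to -8.85 on EDRE replicate 1, where it was not well above background. For Trp53 the main probe had 11 usable arrays, too few for this measure. The points behind each measure are the same 18 arrays, which hold both the stem cell and the ED groups. Only the main probe of each gene was used, and the Trp63 probes differed in their rise with differentiation. The likeness is therefore to 1 probe and not to the gene.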

How the data were processed

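Per the file headers and the labels, Cy3-labeled RNA of each sample was read on 1 one-color array, and spots were read with Agilent Feature Extraction (10.7.3.1 in the file headers, 9.1 in the submitters' processing notes). The array design was built on mm9. The authors deposited intensity values per spot, background-subtracted by Feature Extraction and not normalized between arrays. They also deposited a table of log2 values for 30133 probes, each the log2 signal minus about the median of its array, as tested on the files. How it was made is not given in the sources used here.

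Control spots were left out, outlier spots (non-uniform or population outliers) were set missing, and the log2 of each array's 75th percentile was subtracted from its log2 signals. Testing needed a signal well above background on every array of 1 or more of the groups compared. All 18 arrays entered 1 fit of the 6 group means with limma 3.58.1 in R 4.3.3, with moderated variances and Benjamini-Hochberg adjustment over all probes tested. SE is the fit's standard error. No member spot was saturated, and precision is limited by the 3 arrays of a group. The steps were tested on simulated data. Python 3.11.15 was used for the rest.

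The members and the gene lists were chosen with earlier results of these data known, so no list is independent evidence. All members are named with each probe that RefSeq (GRCm38.p6) assigns to them, their main probe first. Of the target and regulator lists, at most 4 genes called in each direction are given with values. Other settings were another background correction, scalings, filters, scan time or replicate number as a block, array weights, the methods' t-test, other call rules, and leaving out each array in turn.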

Additional observations from a re-analysis of the deposited data

Results flagged for a closer look

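A pair of p53 targets changed differently after IR in stem and ED cells at 4 h, by the test of the difference itself. They were 2 of 25 targets tested, where 1.16% of all genes were called (0.246% higher, 0.911% lower). For Fas NM_007987 the change in ES minus the change in ED was -1.96 (SE 0.30, adjusted p = 0.00835, limma), the change being 0.71 in stem cells and 2.68 in ED cells. Its other probe, NM_001146708, gave -1.17 (SE 0.30, adjusted p = 0.0864). For Perp the difference was -1.63 (SE 0.22, adjusted p = 0.00343), with changes of 0.50 and 2.12. At 15 min the difference for Pmaip1 was -1.76 (SE 0.36, adjusted p = 0.0326), where the ED level was not well above background on any array and that of EDRE on 1 of 3. For Setd7 at 15 min it was 2.96 (SE 0.53, adjusted p = 0.0168), with changes of 1.77 in stem cells (adjusted p = 0.0648) and -1.19 in ED cells (adjusted p = 0.0531). With scan time as a random block, none of these 4 differences was called. The call of Pmaip1, for which 1 group had 1 usable array, was lost in 12 of 31 alternatives, 7 of which left out 1 of its own arrays. That of Setd7 was lost in 5 of 33, without ES replicate 2 or 3 among them.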

How the results depend on the processing

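The counts of members called, given here as the number under a setting, moved with the processing in most comparisons. The number of all genes called moved too. In ESRL against ES it was 1943 of 25599, against 76 with normexp and 953 with quantile normalization. In EDRE against ED it was 1165 of 22404, against 3081 with normexp and 1871 with arrays set to their median. In EDRL against ED it was 385 of 23209, against 144 with normexp. In ED against ES the 4 members became 2 where every tested probe of a gene had to pass, and 3 to 4 leaving out each array in turn. In ESRL against ES the 2 members became 0 with normexp, scan time as a random block, the methods' t-test or the 75th percentile without outlier spots, and 1 with quantile normalization, the value table, no filter on dim probes, the filter in all groups, only the groups compared fitted, every probe required, or without the 3 dim arrays (outlier spots left out or kept). The range was 1 to 4 leaving out each array. In EDRL against ED the 1 member became 0 with normexp, the filter in all groups, scan time as a random block or every probe required, and 2 with arrays set to their median, the value table or no limit on the fold. It stayed at 1 leaving out each array. In ESRL against ESRE the 1 member became 0 with normexp, the t-test, the 75th percentile without outlier spots or every probe required, and 2 with arrays set to their median, quantile normalization or array weights, with a range of 1 to 4 leaving out each array. In EDRL against EDRE the 2 members became 0 with only the groups compared fitted or the t-test, and 4 with array weights or the 75th percentile without outlier spots. They became 1 with normexp, the 75th percentile over probes detected on all arrays, quantile normalization, either change of the filter, scan time as a random block, as a fixed block or held to 1 time, the replicate block, every probe required, or without the 3 dim arrays (outlier spots left out or kept), and the range was 1 to 3 leaving out each array. Where 0 members were called, ESRE against ES gave 1, Trp63, with array weights or with outlier spots kept and the 3 dim arrays left out (0 to 1 leaving out each array). EDRE against ED gave 1 with normexp or arrays set to their median, 2 with the value table or outlier spots kept, 3 with array weights and 4 with the 75th percentile without outlier spots (0 to 2 leaving out each array). The difference of IR changes gave 4 with array weights and 1 with the 75th percentile without outlier spots at 15 min, and 1 with array weights at 4 h (0 to 1 at both times leaving out each array). The cause of these moves was not tested.

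Directions turned mainly in comparisons with EDRE. With normexp, Trp73 in EDRL against EDRE was -0.63 (NM_001126331), -0.87 (NM_001126330) and -0.89 (NM_011642), as differences of measured levels with EDRE near background. With the 75th percentile without outlier spots, which set the median change of all genes in EDRE against ED to 1.56 from 0.03, Trp73 in EDRL against EDRE was -0.47 (NM_001126330) and -0.14 (NM_011642), and the p53 target Polk was -0.09. Under that setting EDRE against ED was 1.83 for Ppp1r13b and 1.70, 1.28, 1.22 and 1.67 for Trp63 NM_001127261, NM_001127259, NM_001127262 and NM_011641. EDRL against EDRE was -1.45, -1.35 and -1.65 for Trp63 NM_001127259, NM_001127262 and NM_011641, and the difference at 15 min was -1.75 and -1.77 for Trp63 NM_001127259 and NM_001127262. Hipk2 in EDRL against EDRE was 0.04 within 1 scan time, with scan time as a fixed block and without the 3 dim arrays. Each of these settings compares the EDRL arrays with EDRE replicate 1 alone, so they are the same result and not separate checks. The fixed block, the 75th percentile without outlier spots and both settings without the dim arrays were chosen after seeing the data.

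Scaling moved the balance of all genes. In ED against ES the median log2 change of all genes was -0.19, with 3902 genes higher and 6998 lower, against 0.46, 7020 and 4872 with arrays set to their median and 0.22, 5670 and 5342 with quantile normalization. In ESRL against ES it was 177 higher and 1766 lower against 556 and 1028, and in EDRE against ED 500 and 665 against 1342 and 531, with arrays set to their median.

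Replicate numbers showed no steady pairing of the samples: same-numbered deviations correlated at -0.434 to 0.304. That does not show that the samples were unpaired. The replicate block left 1 member called in EDRL against EDRE, where Hipk2 lost its call (adjusted p = 0.07), and changed no other call of a member probe. The t-test gave no value for the differences of IR changes. Dim members, Mdm4 and Trp73 in ED, were limited by signal over background.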
